A study of Mus musculus with 6 samples.

Results

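The keratin genes of cultured embryonic mouse kidneys are described here, as measured after 6 h with the histone deacetylase inhibitor Scriptaid or with its control compound Nullscript. A keratin was taken as every non-control probe whose gene name in the scanner files begins with Krt and a digit, with keratin-associated proteins left out. The rule found 50 of 41174 probes, for 42 of 27670 genes, under older names such as Krt2-1 (now Krt1), Krt2-17 (now Krt2) and Krt2-25 (now Krt87) too. After a filter on dim probes, 48 keratin probes and 41 keratin genes remained of 39407 probes and 26500 genes. The only probe of Krt25, an inner root sheath keratin, did not pass, being well above background on 1 array for the channel labelled Scriptaid and on 2 arrays for the channel labelled Nullscript. The second probe of Krt12 was above background on 0 arrays for either drug. The family was picked because Krt23 has the largest ratio on its side of the comparison, so the keratin ratios between the drugs are a description. Calls of the fit over all genes are counted for them beside the share of all genes called, no p-value is given for a keratin's drug ratio, and nothing is rested on its call.

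Keratins are the intermediate filament proteins of epithelial cells, and each filament is built from a type I and a type II keratin in equal amounts. Simple epithelia, such as the ducts of the kidney, use the type II keratins Krt7 and Krt8 with the type I keratins Krt18 and Krt19. Krt20, counted with them here, is a type I keratin of intestine and urothelium. Stratified epithelia use Krt5 with Krt14 in basal cells and Krt1 with Krt10 above them, and separate sets build the hair shaft and its root sheath. Krt23 is a type I keratin that in human pancreatic cancer cells is known to be induced by histone deacetylase inhibitors.

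Kidneys of CD1 mouse embryos at E13.5 were grown as explants on filters over serum-containing medium, and the kidneys of a pair received Scriptaid or Nullscript, each at 2.0 µg/ml for 6 h. Scriptaid blocks histone deacetylases, and Nullscript is a related compound used as the control drug. RNA of both arms was hybridised together on 2-colour arrays. The labels number 3 biological replicates, and every replicate was hybridised once in each dye orientation, so that 3 arrays carry Scriptaid in Cy3 and 3 carry it in Cy5. The series text counts 4 arrays, whereas 6 arrays with their own dye labels were used here. How many embryos were pooled per replicate is not stated in the labels, so the spread covers these 3 samples and may be partly technical.

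Genes known from other cells to respond to histone deacetylase inhibitors lay opposite to the drug names, so the channels are called labelled Scriptaid and labelled Nullscript throughout. Gsn, Cdkn1a and Txnip, which such inhibitors raise in other cells, had log2 ratios of -1.04, -0.91 and -1.01, and H1f0, which they raise too, had -1.18, -0.94 and -0.88 in replicates 1, 2 and 3. All 4 were higher in the channel labelled Nullscript. Ccnd1, Myc, Tyms and Ccnb1, which such inhibitors lower elsewhere, had log2 ratios of 1.90, 1.71, 0.73 and 0.59, and all 4 were higher in the channel labelled Scriptaid. Another probe of Myc stood at 0.30 and another of Tyms at -0.02, while a further probe of each stood at 1.76 and 0.74. Other probes of Ccnb1 stood at 0.54 and 0.74, of H1f0 at -0.82 and -0.80, and of Txnip at -0.80. If the drug names were exchanged, the sign of every drug ratio below would turn. Krt23, the gene with a known response to such inhibitors in human cells, lay on the side of the channel labelled Scriptaid. Krt23 was chosen for the size of that ratio, so nothing about the drug names is read from it.

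Ratios are log2 of Scriptaid-labelled over Nullscript-labelled signal, after background correction and loess normalisation within arrays, with the arrays of a replicate averaged (n = 3). A gene is named called where limma's test of the replicate mean against 0 gave a Benjamini-Hochberg adjusted p under 0.05 over 26500 genes. By that rule 46.2% of all genes were called, 22.5% as higher in the channel labelled Scriptaid and 23.7% as higher in the channel labelled Nullscript. Of the 41 keratins tested, 16 were called, which is 39% of them, and without Krt23 it is 37.5%. The 8 higher in the channel labelled Scriptaid were Krt23, Krt10, Krt7, Krt16, Krt80, Krt15, Krt19 and Krt33a. The 8 higher in the channel labelled Nullscript were Krt222, Krt20, Krt18, Krt76, Krt35, Krt5, Krt27 and Krt42. Because Krt23 was chosen on this ratio, nothing is read from these counts. Without replicate 3, 6 keratins were called, and without replicate 2 it was 10. Of the 16, 6 were called in all 15 alternative settings, namely Krt23, Krt10, Krt7, Krt16, Krt20 and Krt222. Called least often were Krt80 in 7 of 15, Krt33a in 8 and Krt19 in 9.

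The keratins spread little apart from a few members. Several keratin probes were dim, which limits what a ratio near 0 can show. Ratios of dim probes also depended on the offset of 50 used in background correction. With an offset of 16, Krt222 stood at -0.41, against -0.29, Krt20 at -0.32, against -0.25, and Krt80 at 0.28, against 0.19. The bright Krt18 probe stood at -0.18, against -0.19. The keratin count under 0.25 given below therefore depends on that setting. The median keratin ratio was -0.01, against -0.01 over all genes, and the median absolute ratio was 0.06, against 0.10 over all genes. An absolute log2 ratio under 0.25 was found for 35 of 41 keratins, or 85.4%, beside 69.1% of all genes. Among the keratins 2 were both called and at least 2-fold apart, Krt23 and Krt10, where 3.03% of all genes were. Type I keratins were called in 11 of 23 cases (47.8%) and type II keratins in 4 of 17 (23.5%), beside 46.2% of all genes. Krt222, which belongs to neither list, was called too. These shares describe a family that contains the gene it was chosen for.

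**Figure D1:**
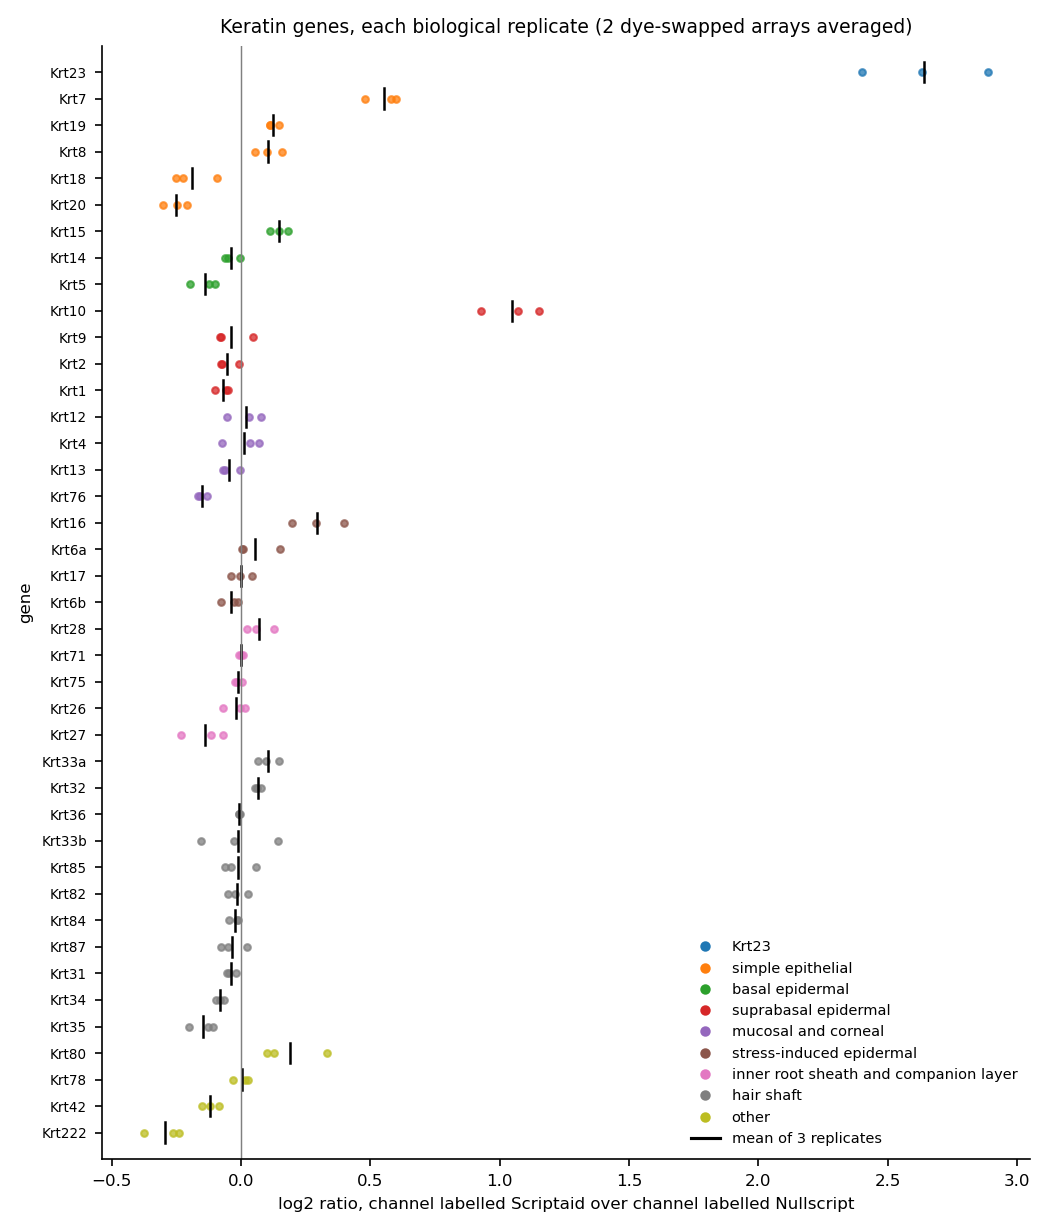
Log2 ratio of Scriptaid-labelled over Nullscript-labelled signal (horizontal axis) for each of the 41 keratin genes tested (vertical axis), ordered and coloured by role. Points are the 3 biological replicates and bars their mean. Krt23 stands at 2.64, Krt10 at 1.05 and Krt7 at 0.55, and every other mean lies between -0.29 and 0.29.

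**Figure D2:**
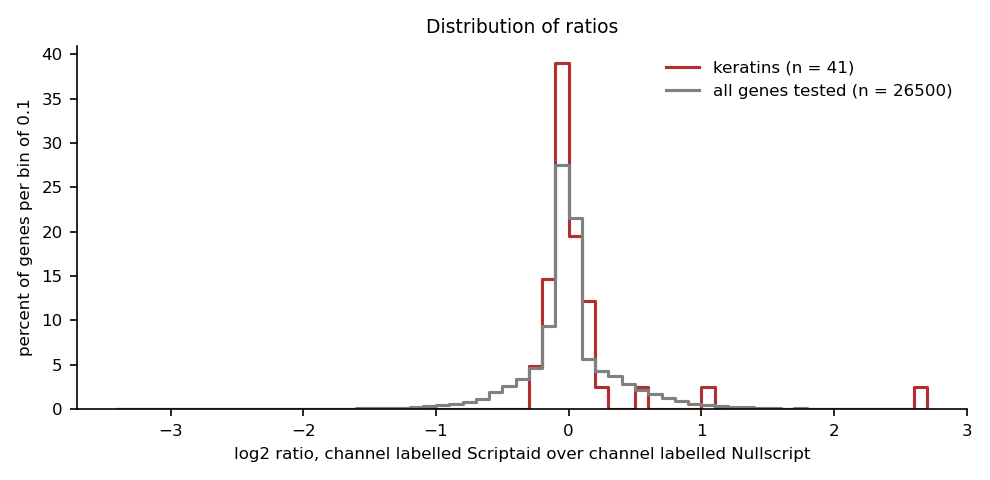
Percent of genes (vertical axis) per bin of log2 ratio of Scriptaid-labelled over Nullscript-labelled signal (horizontal axis), for the 41 keratins and for all 26500 genes tested. Ratios under 0.25 in size make up 85.4% of the keratins and 69.1% of all genes, with Krt7, Krt10 and Krt23 as separate steps on the right.

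The starts of 4 of these genes are shown because they hold the largest keratin ratios (Krt23, Krt10 and Krt7) and the gene directly beside Krt23 (Krt20), which lay on the other side of 0. Each sequence is the RefSeq promoter window on GRCm38.p6, 300 bases from 250 before to 50 after the start site, read 5′ to 3′ on the gene's strand. The windows are chr11:99493071-99493370 on the minus strand for Krt23, chr11:99438104-99438403 on the minus strand for Krt20, chr11:99389315-99389614 on the minus strand for Krt10 and chr15:101412153-101412452 on the plus strand for Krt7. Capitals mark matches to GGGCGG, the core of the Sp1 box, to TGANTCA, the AP-1 core, and to TATAAA, the TATA box, each searched on both strands.
Krt23: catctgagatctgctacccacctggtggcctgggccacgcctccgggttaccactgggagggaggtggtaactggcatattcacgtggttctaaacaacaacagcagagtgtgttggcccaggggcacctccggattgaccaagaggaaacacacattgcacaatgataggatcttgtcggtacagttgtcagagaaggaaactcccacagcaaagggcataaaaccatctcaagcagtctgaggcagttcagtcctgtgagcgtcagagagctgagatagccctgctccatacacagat
Krt20: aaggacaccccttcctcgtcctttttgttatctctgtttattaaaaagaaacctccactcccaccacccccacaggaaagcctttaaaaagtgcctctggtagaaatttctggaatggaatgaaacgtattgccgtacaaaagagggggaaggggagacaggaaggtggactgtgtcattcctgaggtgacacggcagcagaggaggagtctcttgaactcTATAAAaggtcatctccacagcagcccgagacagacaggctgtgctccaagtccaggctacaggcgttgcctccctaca
Krt10: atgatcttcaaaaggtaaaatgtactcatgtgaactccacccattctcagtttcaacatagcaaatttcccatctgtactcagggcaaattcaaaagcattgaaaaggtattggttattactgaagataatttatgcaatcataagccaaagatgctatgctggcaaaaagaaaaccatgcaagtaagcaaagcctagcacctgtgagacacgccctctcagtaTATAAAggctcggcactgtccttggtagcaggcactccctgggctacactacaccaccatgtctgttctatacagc
Krt7: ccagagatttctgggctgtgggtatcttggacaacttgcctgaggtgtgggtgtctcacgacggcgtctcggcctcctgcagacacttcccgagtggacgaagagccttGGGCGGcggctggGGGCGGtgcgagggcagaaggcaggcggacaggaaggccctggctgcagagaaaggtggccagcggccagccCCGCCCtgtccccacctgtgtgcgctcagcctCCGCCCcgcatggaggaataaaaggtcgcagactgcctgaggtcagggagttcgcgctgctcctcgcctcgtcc
The Krt23 window held none of the 3 motifs. Krt20 and Krt10 each held 1 TATAAA, at 29 and 26 bases before the start, and Krt7 held 4 matches to GGGCGG. Over all 32851 promoters of the table, 35.7% held GGGCGG, 7.81% TGANTCA and 13.6% TATAAA. Of the 28 promoters listed for 27 of the keratin genes tested, 2 held GGGCGG, 2 TGANTCA and 15 TATAAA. A match is a stretch of letters and not a shown binding site, and a window without one says nothing about the factor.

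Krt23 was brighter in the channel labelled Scriptaid on all 6 arrays. On the arrays with Scriptaid in Cy3, its spot read 4213, 2880 and 3871 scanner units in the channel labelled Scriptaid in replicates 1, 2 and 3, against 767, 653 and 815 in the channel labelled Nullscript. With Scriptaid in Cy5 it read 9374, 5866 and 6984 in the channel labelled Scriptaid, against 445, 557 and 298 in the channel labelled Nullscript. The lowest value of the channel labelled Scriptaid, 2880, was above the highest of the channel labelled Nullscript, 815. Because Krt23 was chosen for its ratio between these channels, the gap is a description and nothing is rested on it. These intensities are background-subtracted and not yet dye-normalised, and a probe's brightness cannot be set against another probe's.

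After normalisation the log2 ratio of Krt23 was 3.01, 2.56 and 2.66 with Scriptaid in Cy3, and 2.77, 2.24 and 2.61 with Scriptaid in Cy5. Averaged by replicate these gave 2.89, 2.40 and 2.63, a mean of 2.64 ± 0.24 (SD, n = 3), or 6.23-fold. The ratio was positive on all 6 arrays. Replicates 1 and 2 shared a slide, and the ratio was 2.63 on the slide of replicate 3 and 2.64 with slide as a block. Krt23 was the first of 26500 genes on its side, which is the reason the family was picked. Just behind it were Scx, a tendon transcription factor, at 2.38, Esm1, an endothelial proteoglycan, at 2.22, Tril, a co-receptor of Toll-like receptors, at 2.21, and Bend3, a chromatin repressor, at 2.19. The single Krt23 probe leaves the ratio without a second probe to set beside it. In bulk tissue, a change in the number of cells of a type and a change in RNA per cell cannot be told apart.

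**Figure D3:**
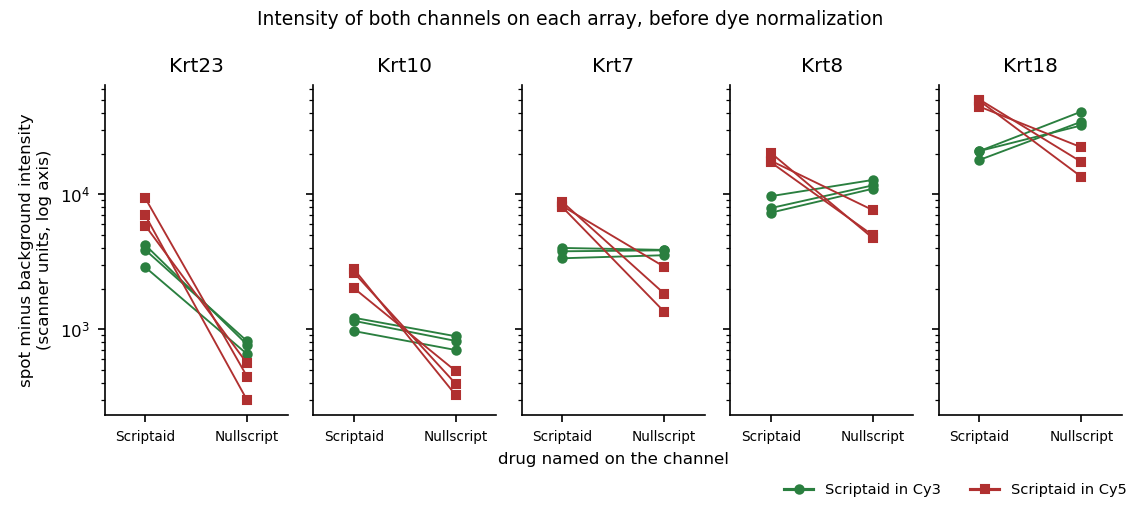
Background-subtracted spot intensity in scanner units (vertical log axis) of the channels labelled Scriptaid and Nullscript (horizontal axis), for 5 keratin probes, with a line for each of the 6 arrays coloured by dye orientation. Krt23 reads at least 2880 in the channel labelled Scriptaid and at most 815 in the channel labelled Nullscript. For Krt8 and Krt18, and for Krt7 in some replicates, the slope turns with the dye. The intensities are not yet dye-normalised, so a turn does not show a dye effect particular to a gene.

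The simple epithelial keratins, which apart from Krt20 are used by kidney ducts, did not share a direction. Krt7, a type II keratin of ductal epithelia, had log2 ratios of 0.55, 0.57 and 0.49 with Scriptaid in Cy3 and of 0.65, 0.39 and 0.67 with Scriptaid in Cy5, a mean of 0.55 ± 0.06 (SD, n = 3). Its second probe averaged 0.61 ± 0.20 (SD, n = 3). Both Krt7 probes were higher in the channel labelled Scriptaid on all 6 arrays.

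Krt8, the principal type II keratin of simple epithelia, stayed close to 0. Its brighter probe read 0.05, -0.04 and 0.16 with Scriptaid in Cy3 and 0.16, 0.15 and 0.17 with Scriptaid in Cy5, a mean of 0.11 ± 0.05 (SD, n = 3), and its other probe averaged 0.09. Krt18, the type I partner with which Krt8 forms filaments, read -0.40, -0.20 and -0.48 with Scriptaid in Cy3 and -0.05, 0.01 and -0.02 with Scriptaid in Cy5, a mean of -0.19 ± 0.09 (SD, n = 3). The Krt18 offset was thus almost all from the arrays with Scriptaid in Cy3, where the mean was -0.36, against -0.02 with Scriptaid in Cy5. The Krt8 probe read 7314 to 20278 units in the channel labelled Scriptaid and 4739 to 12783 units in the channel labelled Nullscript. The Krt18 probe read 17996 to 50500 units in the channel labelled Scriptaid and 13503 to 41078 units in the channel labelled Nullscript.

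Krt19, a type I keratin of ducts, was slightly higher in the channel labelled Scriptaid on all 6 arrays. Its log2 ratios were 0.13, 0.07 and 0.09 with Scriptaid in Cy3 and 0.16, 0.16 and 0.13 with Scriptaid in Cy5, a mean of 0.12 ± 0.02 (SD, n = 3). Krt20, a type I keratin of intestine and urothelium, was lower in the channel labelled Scriptaid on all 6 arrays. It read -0.25, -0.20 and -0.35 with Scriptaid in Cy3 and -0.16, -0.40 and -0.15 with Scriptaid in Cy5, a mean of -0.25 ± 0.05 (SD, n = 3). The Krt20 spot was dim, at 86 to 194 units in the channel labelled Scriptaid and 63 to 164 units in the channel labelled Nullscript, and with Agilent's processed signals its ratio was -0.41. Of the 5 simple epithelial keratins, 2 were called as higher in the channel labelled Scriptaid, beside 22.5% of all genes. Another 2 were called as higher in the channel labelled Nullscript, beside 23.7% of all genes.

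**Figure D4:**
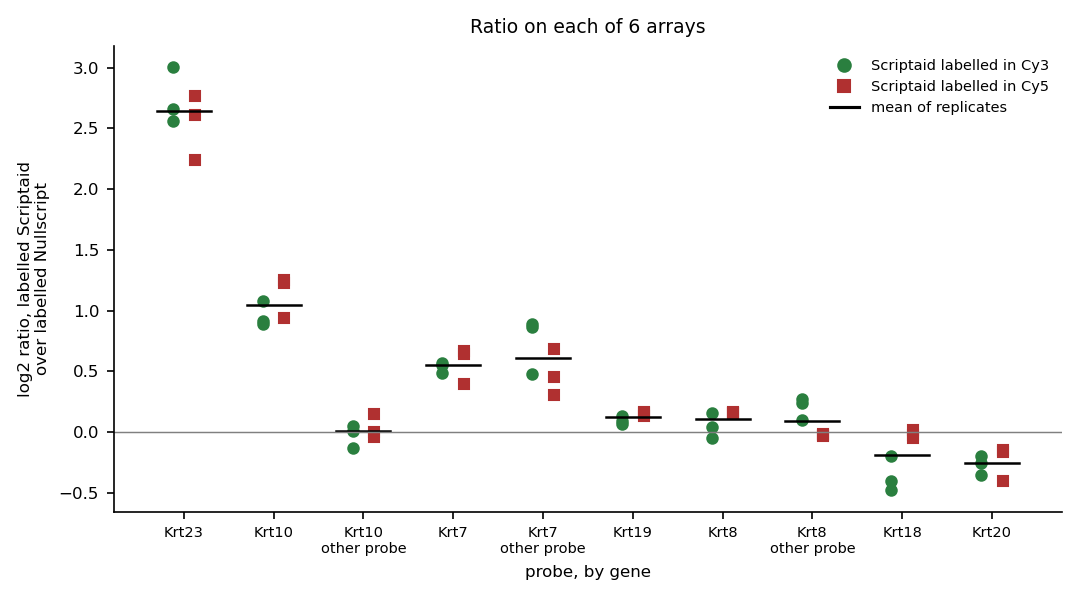
Log2 ratio of Scriptaid-labelled over Nullscript-labelled signal (vertical axis) on each of the 6 arrays, for probes of Krt23, Krt10 and the simple epithelial keratins (horizontal axis), with symbols by dye orientation and bars for the mean of replicates. The Krt10 probes differ by 1.04, the Krt7 probes by 0.06 and the Krt8 probes by 0.02, and Krt18 lies near 0 on the arrays with Scriptaid in Cy5 only.

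Markers of duct and lining cells gave the following values beside these keratins. Of 12 ureteric bud markers, 8 were called as higher in the channel labelled Scriptaid, beside 22.5% of all genes, and 1 as higher in the channel labelled Nullscript, with ratios of -0.68 to 0.98. Their summed normalised level was 78718 to 89467 in the channel labelled Scriptaid and 65307 to 73965 in the channel labelled Nullscript, higher in the channel labelled Scriptaid on 6 of 6 arrays. Among them Cdh1, the epithelial cadherin, had a log2 ratio of -0.68 (limma adjusted p = 0.000207), negative in 3 of 3 replicates, and Epcam had 0.11 (limma adjusted p = 0.192). Urothelium markers were called as higher in the channel labelled Nullscript in 2 of 4 cases, beside 23.7% of all genes. Their sum was 1525 to 3806 in the channel labelled Scriptaid and 1688 to 4323 in the channel labelled Nullscript. It was higher in the channel labelled Scriptaid on 0 of 6 arrays. Markers of some other cells lay toward the channel labelled Scriptaid as well. Calls that way were found for 8 of 9 nephron progenitor, 6 of 7 renal vesicle, 6 of 7 stroma and 5 of 6 endothelium markers. Their median ratios were 0.71 for nephron progenitors, 0.51 for renal vesicles, 0.66 for stroma and 0.81 for endothelium, where the ureteric bud markers had 0.20. Nephron progenitor markers summed to 45986 to 54021 in the channel labelled Scriptaid and 21489 to 24750 in the channel labelled Nullscript. Calls did not lean that way for macrophage, red blood cell or mesothelium markers. Of 6 macrophage markers 2 were called in each direction, though their sum was higher in the channel labelled Scriptaid on 6 of 6 arrays. As higher in the channel labelled Nullscript, 2 of 5 red blood cell and 1 of 4 mesothelium markers were called. In the other direction 0 were called in both lists. Marker calls and sums rest on the brightest probe of each gene. For some markers other probes gave clearly smaller ratios, and for some clearly larger ones. The part of the cell makeup in the keratin ratios was not tested.

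Most keratins of stratified epithelia lay under 0.25 in absolute log2 ratio, and Krt10 and Krt16 lay above it. Krt10, the type I keratin of the suprabasal epidermis, had log2 ratios of 1.08, 0.91 and 0.89 with Scriptaid in Cy3 and of 1.23, 0.94 and 1.25 with Scriptaid in Cy5 on its brighter probe, a mean of 1.05 ± 0.11 (SD, n = 3), or 2.07-fold. Its dimmer probe, assigned to the same transcript, averaged 0.01 ± 0.07 (SD, n = 3), so the Krt10 probes disagree by 1.04. The brighter probe read 968 to 2794 units in the channel labelled Scriptaid and 325 to 886 units in the channel labelled Nullscript. The dimmer probe read 169 to 378 units in the channel labelled Scriptaid and 110 to 341 units in the channel labelled Nullscript. Krt1, the type II keratin that pairs with Krt10, averaged -0.07, and the other suprabasal keratins Krt2 and Krt9 averaged -0.05 and -0.04. The second probe of Krt1 averaged 0.08 and that of Krt2 averaged 0.16, positive on all 6 arrays, so the sign of Krt1 and Krt2 depended on the probe. With all probes of a gene averaged, Krt1 stood at 0.0066 and Krt2 at 0.056.

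Among basal keratins, Krt15 averaged 0.15 and Krt5 averaged -0.14, both with the same sign on all 6 arrays, and Krt14, the partner of Krt5, averaged -0.04. Krt16, a type I keratin of wounded and proliferating epidermis, averaged 0.29 ± 0.10 (SD, n = 3) and was higher in the channel labelled Scriptaid on all 6 arrays. Krt6a, Krt6b and Krt17, which are induced with it in injured skin, averaged 0.05, -0.04 and 0.00. Of the mucosal and corneal keratins, Krt76 averaged -0.15, while Krt4, Krt12 and Krt13 averaged 0.01, 0.02 and -0.04. Surface epidermis markers, of which Krt5 and Krt14 are 2 of 7, summed to 15235 to 16842 in the channel labelled Scriptaid and 13521 to 16456 in the channel labelled Nullscript, higher in the channel labelled Scriptaid on 6 of 6 arrays. Sfn, named after its value was seen, was the 1 member called that way, at 0.24 (limma adjusted p = 0.00872). Its other probes stood at 0.01 and -0.04. The Sfn probe was the brightest of the list, at a mean log2 intensity of 13.35, and Krt5 came next at 11.01, so Sfn weighs most in the sum. Krt5 was called the other way, and the list's median ratio was 0.00. In all 28.6% of the list was called, beside 46.2% of all genes. Trp63, the regulator of basal epidermal identity, had a ratio of 0.00 (limma adjusted p = 0.975) on its brighter probe. Its other probe stood at -0.23, so the Trp63 ratio depended on the probe.

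Keratins of hair and its root sheath lay close to 0, but some of their probes were dim. Krt82 read 33 to 79 units in the channel labelled Scriptaid and 35 to 51 in the channel labelled Nullscript. Krt87 read 42 to 96 and 37 to 112 units, while Krt35 read 1430 to 3985 and 1269 to 2798. A ratio near 0 from a dim probe does not show that expression was unchanged. Of 11 hair shaft keratins, 1 (Krt33a, 0.10) was called as higher in the channel labelled Scriptaid and 1 (Krt35, -0.15) as higher in the channel labelled Nullscript. The other 9 were not called, so 18.2% were called, beside 46.2% of all genes. Of 5 root sheath and companion layer keratins tested, 1 (Krt27, -0.14), or 20%, was called and the other means ran from -0.02 to 0.07. Outside these classes, Krt80 averaged 0.19 ± 0.13 (SD, n = 3), Krt42 averaged -0.12, Krt78 averaged 0.00, and Krt222 averaged -0.29 ± 0.07 (SD, n = 3) with a negative sign on all 6 arrays. With Agilent's processed signals Krt222 stood at -0.58 and Krt80 at 0.40, and with median centring in place of loess Krt80 stood at 0.014. A further 4 keratins were carried on the array under names outside the rule (Krt79, Krt86, Krt88 and Krt90), with ratios of -0.02 to 0.06 and none called, nor any at an unadjusted p under 0.05 in limma.

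Probes of the same keratin did not always share a sign. Of 8 keratins with more than 1 probe, 7 had all probes past the filter, and in 6 of these the probe means lay within 0.25 of each other, with Krt10 as the exception. That tolerance is wider than the ratio of 35 of 41 keratins. The probes of Krt1, Krt2 and Krt13 lay on either side of 0, those of Krt13 at -0.04 and 0.01. Taken probe by probe, 9 of 48 keratin probes were called as higher in the channel labelled Scriptaid and 8 as higher in the channel labelled Nullscript, where 45.2% of all probes were called in either direction.

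In the RefSeq gene table the type I keratins lie together on chromosome 11, apart from Krt18, which lies with the type II keratins on chromosome 15. On chromosome 11, 11 of 23 keratins tested were called, and on chromosome 15 it was 5 of 17, beside 46.2% of all genes. Krt85, which was tested and not called, has no entry in that gene table and is in neither count. A difference between the chromosomes was not tested. Around Krt23 in gene order, the side of Krt20 held Krt20 at -0.25, Krt12 at 0.02, Krt10 at 1.05, Krt28 at 0.07 and Krt27 at -0.14. On its other side, past Krt39 and Krt40, which have no value here, stood the keratin-associated genes Krtap3-3, Krtap3-2, Krtap3-1 and Krtap1-5 at -0.07, -0.03, 0.01 and -0.09, none of them called. The large ratios of Krt23 and of the brighter Krt10 probe were separated by Krt20 and Krt12, with small ratios of either sign. The other Krt10 probe stood at 0.01. A long non-coding RNA gene between Krt20 and Krt12 has no value here.

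A dye effect does not depend on the drug ratio that chose the family, so it was tested. The dye term is the log2 of Cy5 over Cy3 common to all 6 arrays, fitted in limma beside the drug term with replicate as a block. It was called for 3 of 41 keratins, where it was called for 5.43% of all genes. Krt18 had a dye term of 0.17 (limma adjusted p = 0.0416) and Krt2 of 0.16 (limma adjusted p = 0.0293), both brighter in Cy5. Krt27 had a dye term of -0.22 (limma adjusted p = 0.0232), so that its drug ratio averaged 0.08 with Scriptaid in Cy3 and -0.36 with Scriptaid in Cy5. For Krt23 the dye term was -0.10 (limma adjusted p = 0.428). Without replicate 1 or without replicate 3 no keratin had a called dye term, with 4 and 5 keratins at an unadjusted p under 0.05 in limma.

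Proteins that anchor keratin filaments were next set beside the keratins, from lists chosen with earlier results of these data known. Of 18 genes of desmosomes and keratin linkers, 2 were called as higher in the channel labelled Scriptaid and 6 as higher in the channel labelled Nullscript, or 44.4% in all, near the 46.2% of all genes, and the list's median ratio was 0.00. Pkp2, a desmosomal plaque protein, fell by 1.42 on the log2 scale in the channel labelled Scriptaid (limma adjusted p = 0.000135), in 3 of 3 replicates. Pkp4, a related plaque protein, had a ratio of -0.41 (limma adjusted p = 0.000541), and Plec, the plectin that links filaments to hemidesmosomes, had -0.42 (limma adjusted p = 0.000362) with its other probes between -0.30 and 0.00. Dsg2, a desmosomal cadherin of simple epithelia, rose by 0.83 (limma adjusted p = 0.00354), in 3 of 3 replicates, but its other probes stood at 0.24, 0.27 and 0.03.

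Of the remaining intermediate filament genes, 16 were tested. Called as higher in the channel labelled Scriptaid were 2, beside 22.5% of all genes, and 9 were called as higher in the channel labelled Nullscript, beside 23.7%. Together these are 68.8% of the list, beside 46.2% of all genes, with a median ratio of -0.44. Synm, the synemin of muscle filaments, had a ratio of -1.40 (limma adjusted p = 0.000388) and -0.56 on its other probe. The neurofilament genes Nefm and Nefh had -1.33 (limma adjusted p = 0.000244) and -0.74 (limma adjusted p = 0.000461), and their other probes had -0.14 and -0.28. Lmnb1, a nuclear lamin, had 0.80 ± 0.54 (SD, n = 3, limma adjusted p = 0.0272), with 0.20 in replicate 2. Vim, the vimentin of mesenchyme, had 0.03 (limma adjusted p = 0.444), from a probe saturated on 3 of 6 arrays, which limits what its ratio can show. Markers of neurons, Nefm among them, were called as higher in the channel labelled Nullscript in 4 of 5 cases and as higher in the channel labelled Scriptaid in 1.

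Regulators of epithelial genes lay on both sides of 0. Of 14 tested, 5 were called as higher in the channel labelled Scriptaid and 6 as higher in the channel labelled Nullscript, or 78.6% in all, beside 46.2% of all genes, with a median of -0.03. Grhl1, a grainyhead transcription factor, had -0.94 (limma adjusted p = 0.000148) and -1.01 on its other probe. Ovol1, a repressor in epithelial differentiation, had 0.90 (limma adjusted p = 0.000164) and 0.65 on its other probe. Tfap2c, an AP-2 factor, had -0.74 (limma adjusted p = 0.000162).

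Of 18 cornified envelope genes, 2 were called as higher in the channel labelled Scriptaid and 4 as higher in the channel labelled Nullscript, or 33.3% in all, beside 46.2% of all genes, with a median of 0.01. Without replicate 3, 2 of them were called. The leading members were Lor, the loricrin of the envelope, at 0.51 (limma adjusted p = 0.00195), the crosslinking enzymes Tgm1 at -0.48 (limma adjusted p = 0.00277) and Tgm5 at 0.28 (limma adjusted p = 0.00649), and Tchh, trichohyalin, at -0.22 (limma adjusted p = 0.0131). Of 25 keratin-associated proteins of the hair shaft tested, 1 was called as higher in the channel labelled Scriptaid and 3 as higher in the channel labelled Nullscript, or 16% in all, beside 46.2% of all genes. These were Krtap6-3 at 0.33, and Krtap15, Krtap5-4 and Krtap14 at -0.14, -0.11 and -0.11, with limma adjusted p of 0.000813, 0.0283, 0.0333 and 0.0453. Of the 25, 1 was called with slide as a block and without replicate 3, 2 without replicate 2, and 9 with median centring in place of loess. Krtap15 missed the threshold in 6 alternatives, and Krtap5-4 and Krtap14 in 5 each.

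**Figure D5:**
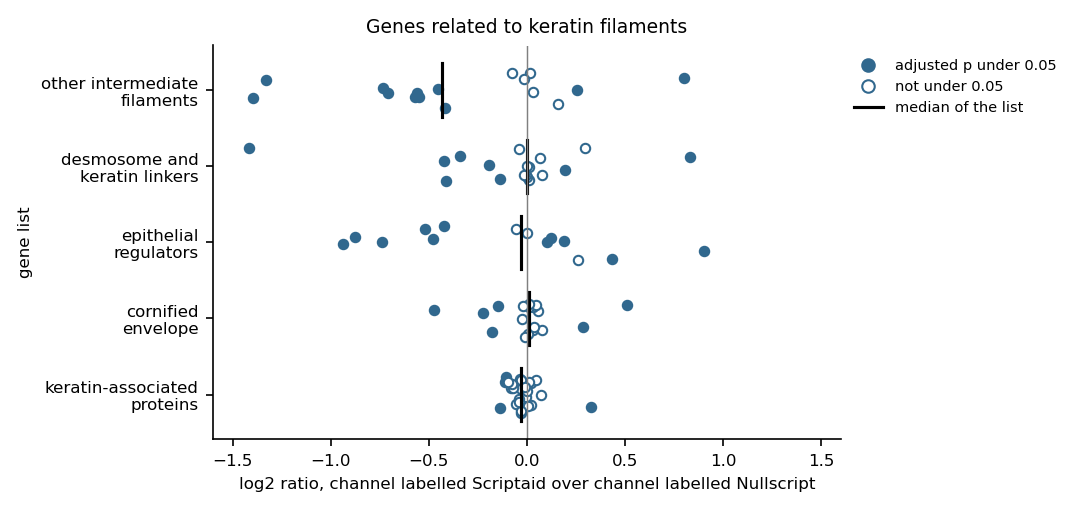
Log2 ratio of Scriptaid-labelled over Nullscript-labelled signal (horizontal axis) for the tested genes of 5 lists related to keratin filaments (vertical axis). Filled points had an adjusted p under 0.05 in limma, open points did not, and bars are list medians, of which that of the other intermediate filaments is -0.44 and the others lie between -0.03 and 0.01.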

How the data were processed

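The deposited scanner files hold, per the file headers, the intensity of each spot and its local background in both channels from Agilent Feature Extraction 9.1.3.1. A value table deposited by the authors gives log10 ratios, which differ by at most 4.82e-06 from the scanner log10 ratio turned to read labelled Scriptaid over labelled Nullscript, and its column medians were -0.00959 to -0.00136.

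Mean intensities were corrected by normexp (offset 50) and loess-normalised within arrays with control spots at weight 0, using limma 3.58.1 in R 4.3.3. Outlier spots (0.0480%) were left out. Spots of a probe were averaged, and saturated spots were kept. For a probe to be tested, 1 drug's channel had to be well above background on 3 or more of the 6 arrays, and 91.5% to 96.5% of spots per channel were above background, so that this mark separates little. A gene was represented by its brightest probe and named by accession (22951 probes), current symbol (6659), older symbol (3109) or the file's name (8455). The arrays of a replicate were averaged, and the 3 means were tested against 0 with lmFit and eBayes and Benjamini-Hochberg adjustment over 26500 genes. The dye term was fitted on 6 arrays with replicate as a random block (consensus correlation 0.0975).

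Arrays of the same replicate pair by their labels, and deviations of the arrays of a replicate correlated at 0.61, 0.13 and 0.01 in replicates 1, 2 and 3. Ratios correlated at 0.75 to 0.86 within a replicate and at 0.87 to 0.94 between replicates of the same dyes. Precision is limited by the 3 replicates. Every keratin could be named. Per-array values were given for Krt23, the simple epithelial keratins and any keratin with an absolute log2 ratio of 1 or more, and up to 4 called members with the largest absolute ratios were named from each related list, besides a set of fixed genes. A gene that this rule takes is not reported here. The members, lists and rules were chosen with earlier results of these data known. Alternatives covered background correction, normalisation, filters, probe choice, slide, dye orientation, replicates and the deposited value table.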

Additional observations from a re-analysis of the deposited data

Results flagged for a closer look

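The dye term, log2 of Cy5 over Cy3 across all 6 arrays, was called for 3 of 41 keratins, beside 5.43% of all genes. The drug ratio of these 3 depended on which dye carried Scriptaid. No such call remained without replicate 1 or without replicate 3. The dye term was 0.16 for Krt2, whose ratio averaged -0.21 with Scriptaid in Cy3 and 0.11 with Scriptaid in Cy5. It was -0.22 for Krt27 and 0.17 for Krt18, the values with each dye orientation being given above. The replicate means used elsewhere average over both dye orientations.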

How the results depend on the processing

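Krt23 kept its sign in all alternatives, from 2.52 to 2.76, the range over left-out replicates too. It was first on its side except with Agilent's processed signals (2.75) and in the deposited value table (2.72), where a transcript without a gene symbol stood ahead. Leaving out 1 replicate gave 6 to 11 called keratins (4 to 5 higher in the channel labelled Scriptaid and 2 to 6 in the channel labelled Nullscript), 8332 to 11150 called genes of 12250, 29 to 37 called genes of the related lists, where the full set gave 40, and 0 to 3 called dye terms. Such fits have fewer samples. With slide as a block, or with the Cy3 arrays alone, 4 keratins were called as higher in the channel labelled Scriptaid, where the full set gave 8. Testing each probe as its own feature gave 65 calls in the related lists, since more features are tested. The fit of 6 arrays with a dye term and replicate block called 18 keratins, 9 on each side, where the replicate means called 16, and moved no other count by over 1.5 times. The dye term was called for 1 keratin with processed signals and for 30 with median centring in place of loess, where 65.2% of all genes were called. Krt33a turned to -0.042 with median centring and Krt27 to 0.079 on the arrays with Scriptaid in Cy3, and the cause was not tested. Krt10 stood at 0.53 when its probes were averaged, and in the deposited value table Krt222 stood at -0.61 and Krt20 at -0.44. With 3 replicates, ratios near 0 are not resolved.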
